A study of Mus musculus with 4 samples.

Results

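CTCF binding at collagen genes was read from ChIP-seq peaks (sequencing of DNA pulled down with an antibody to CTCF) called in mouse gastrocnemius, the large muscle of the calf. Members were the autosomal protein-coding genes of GENCODE M21 (mm10) whose symbols have the form of a collagen chain, which gave 42 of 20807 such genes. They divide into 11 genes for fibrillar collagens and 31 for other collagens, and the X-linked pair Col4a5 and Col4a6 fell outside the rule. Summits, the positions of highest signal within each peak, were counted within 5 kb of each gene's start and inside each gene body, in the depositors' conservative list of 42163 peaks. In all, 125 summits lay near a collagen start or in a collagen body. The 4 libraries came from adult female B6CASTF1/J mice aged 2 months, a hybrid strain with no stated genetic change or treatment, and mm10 does not separate the parental alleles. They form pool E and pool F, each made from 2 muscle samples and sequenced as 2 technical replicates that the depositors merged. The pools are the biological replicates and have a list each, while the conservative list rests on both. Depth was unknown and 2 pools allow no test, so all shares and densities below are descriptions; the main ones are also given for each pool. Whole muscle also holds fibroblasts, endothelium and nerve besides the muscle fibres, and the lists do not say which cells carried a peak.

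Collagens are extracellular proteins whose chains wind around each other, and they make up much of the connective tissue that surrounds muscle fibres. Fibrillar collagens form the tension-bearing fibrils, collagen IV forms the sheet of the basement membrane around each fibre, and collagen VI forms beaded filaments that link the sheet to the matrix. CTCF, a protein with many zinc fingers, recognises a long motif and holds many chromosome loops together at sites whose motifs point toward each other.

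The sequences under the summits that the results turn on are shown first. Each is 30 bases of mm10 read 5′ to 3′ along the motif's strand, with the match to the 14-base CTCF core consensus in capitals, and the distance counts from the gene's start into the gene. The first set lies at starts of fibrillar genes.
Col1a1, 928 bp, chr11:94937166-94937195, minus strand: caaggcaaCCACTAGGTGGCGGgcaaaact
Col1a1, 3249 bp, chr11:94939457-94939486, plus strand: atggtgagCCACCAGGGGGAGCagtgacca
Col1a2, 1612 bp, chr6:4506395-4506424, minus strand: ctttacccCCTCCAGGGGGCGTatttttat
Col3a1, 2585 bp, chr1:45314124-45314153, minus strand: tttgttagCCACTAGGTGGCATggtttagc
Col5a1, 920 bp, chr2:27887323-27887352, minus strand: tggccttgACTCTAGGGGGCGGccctttcc
Col11a1, 2010 bp, chr3:114032532-114032561, minus strand: gaagaaaaCCAGCAGAGGGCAGaactgctg
Col27a1, 1294 bp, chr4:63215291-63215320, plus strand: tgctgcgtCCGGCAGGGGGCAGcagttggc
The matches of Col1a1 at 928 bp and of Col11a1 have 0 mismatches, although the Col1a1 summit had a strength of 512.5 and the Col11a1 summit 160.6. All 6 genes lie on the plus strand, so the matches shown on the minus strand read against the gene and those on the plus strand read with it.

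The second set holds strong summits at the starts of other collagens and inside the collagen IV genes.
Col6a2, 195 bp, chr10:76623429-76623458, plus strand: aaactcgaCCGCTGGGGGGCGCtgcggccc
Col26a1, 1645 bp, chr5:136881549-136881578, minus strand: tccatctaCCGCCAGGTGGCGCgctatcct
Col13a1, -1505 bp, chr10:61980607-61980636, plus strand: actcagaaCCACTAGGGGGCGCtggagagt
Col12a1, -4461 bp, chr9:79723276-79723305, minus strand: tatctcttCCACTAGAGGGCGCctgtcacc
Col4a4, 110367 bp, chr1:82476458-82476487, minus strand: ctttgctaCCACTGGGGGACGCtgtttcat
Col4a2, 107060 bp, chr8:11419849-11419878, plus strand: tggatccaCCACCAGATGGCAGtcttccca
Col4a2, 108533 bp, chr8:11421326-11421355, minus strand: aaccctagCCAGCAGGGGGCGCtcttctct
The pair in Col4a2 has 0 mismatches in both matches, and these point toward each other over 1473 bp. The strongest collagen summit of all, in Col4a4, has 2 mismatches.

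At the starts, 23 of 42 collagen genes had a summit within 5 kb, a share of 54.8% (95% Wilson interval 39.9 to 68.8, which covers counting error only), against 38.2% of all autosomal coding genes. Fibrillar genes had one in 8 of 11 (72.7%, 43.4 to 90.3) and the other collagens in 15 of 31 (48.4%, 32.0 to 65.2). The intervals of both classes overlap widely, and the interval of the other collagens includes the share of all coding genes. In the list of each pool alone, 23 of 42 collagen genes in pool E (54.8%) and 18 of 42 in pool F (42.9%) had a summit there, against 44.2% and 32.2% of all coding genes. Split by class, 8 of 11 fibrillar genes had one in pool E (72.7%) and 7 of 11 in pool F (63.6%). For the other collagens these counts were 15 of 31 (48.4%) and 11 of 31 (35.5%). By gene length, 8 of 15 collagens under 50 kb (53.3%) had one against 36.8% of the other coding genes, and 7 of 9 above 150 kb (77.8%) against 43.9%. From 50 to 150 kb, the class with the most collagens, it was 8 of 18 (44.4%) against 42.4%, and the 16 other collagens there had 37.5%. Within 1 kb the picture was different, with 7 of 42 collagen genes (16.7%, 8.32 to 30.6) against 21.1% of all coding genes, a value inside the interval. Within 20 kb the counts were 37 of 42 collagen genes (88.1%) against 67.1%. The collagen share was above that of the other coding genes in each window computed from 2 kb to 100 kb; within 2 kb, 15 collagen genes (35.7%) had a summit against 26.96% of the other coding genes. The members nearest to the limit of the window were Col12a1 (4461 bp upstream, beside a nearer summit) and Col16a1 (4646 bp downstream) inside it, and Col11a2 (5110 bp upstream) and Col9a1 (5941 bp upstream) outside it.

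**Figure D1:**
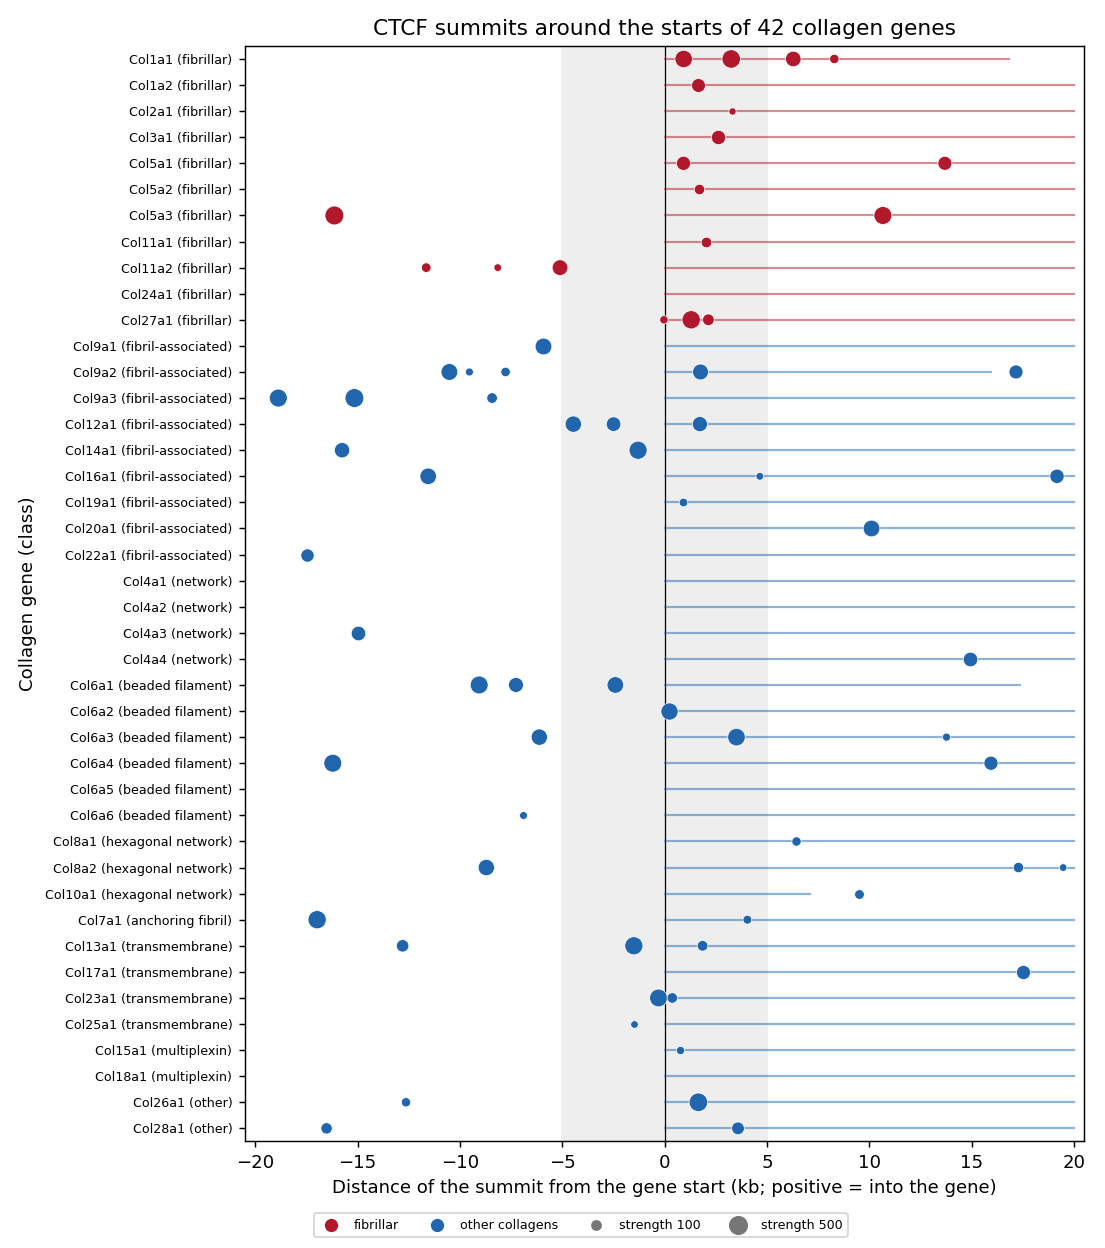
Conservative summits within 20 kb of the start of each of the 42 collagen genes, one row a gene, with distance from the start in kb (positive is into the gene), dot area growing with the authors' peak strength, lines for the gene bodies and grey for the 5 kb window. The fibrillar genes (red, top) have 10 of their 11 summits in the window on the downstream side of the GENCODE start.

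Among the fibrillar genes, Col1a1 and Col1a2 encode the chains of type I collagen, the main collagen of tendon and muscle connective tissue. Col1a1 held 4 summits in a gene of 16.8 kb, at 928, 3249, 6282 and 8285 bp from the start, with strengths of 512.5, 577.1, 395.6 and 114.2. Their motifs alternate along the gene, against it, with it, against it and with it again. In the ranked list of pool E the 4 peaks had strengths of 317.9, 334.3, 235.1 and 77.4, and in that of pool F 212.2, 246.5, 158.5 and 37.0, so the first 3 outranked the fourth in each pool. Col1a2 held 1 summit, at 1612 bp, with a strength of 307.5 (214.7 in pool E and 93.3 in pool F). Col3a1, the chain of type III collagen that accompanies type I, likewise held 1, at 2585 bp, with 329.5 (211.7 in pool E and 122.5 in pool F).

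The chains of type V collagen, which joins type I fibrils and limits their width, differed from each other. Col5a1 held 7 summits in 153.1 kb, the first at 920 bp with a strength of 320.8 (211.1 in pool E and 108.7 in pool F). Col5a2 held 3 in 129.0 kb, and its summit at 1673 bp was weaker, at 155.2, without a motif match. Col5a3 had none within 5 kb, and its nearest lay at 10658 bp with 539.2. Among the cartilage collagens, Col11a1 had a summit at 2010 bp with 160.6 (116.1 in pool E and 45.9 in pool F). Col11a2 had none in its body, and its nearest lay 5110 bp upstream with 408.6. Col2a1, the main collagen of cartilage, had its only summit at 3305 bp with a strength of 49.4, stronger than 1.06% of the conservative list. That Col2a1 peak had no motif match and was among the pool E peaks but not in the pool F list.

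Col24a1 and Col27a1 are the minor fibrillar chains with a shorter helix. Col27a1 had 3 summits in the window, 36 bp upstream (80.3), at 1294 bp (564.2) and at 2136 bp (203.6). Col24a1 had none within 50 kb; its nearest lay at 72938 bp, and 4 more lay deeper in its body of 259.5 kb. In Col27a1 the choice of start matters, since the GENCODE start lies 1408 bp upstream of the RefSeq start. The strongest summit is 114 bp upstream of that RefSeq start. The 250 bases before it, from RefSeq (GRCm38.p6, the assembly of mm10), are shown with the matches to the CTCF core consensus in capitals.
Col27a1 promoter, chr4:63215162-63215411, plus strand: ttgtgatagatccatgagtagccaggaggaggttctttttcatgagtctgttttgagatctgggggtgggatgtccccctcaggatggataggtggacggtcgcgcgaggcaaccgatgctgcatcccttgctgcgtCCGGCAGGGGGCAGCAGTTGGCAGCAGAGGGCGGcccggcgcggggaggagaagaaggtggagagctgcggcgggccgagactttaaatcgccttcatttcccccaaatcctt
The capitals hold 3 overlapping matches with at most 2 mismatches. Of 31396 autosomal RefSeq promoters read over the same 250 bases on both strands, 12.2% hold at least 1 such match, and 33 of the 42 collagen genes have a promoter among them. The Col27a1 promoter is shown because of the summit there, and the share with a match over the 33 is not given. Of other collagen promoters, that of Col4a2 holds 1 match and those of Col4a1 and Col4a4 hold 0.

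The place of the summits relative to the start was examined after their distances had been seen. Among genes of 5 kb or longer, 7 of 11 fibrillar genes (63.6%, 35.4 to 84.8) had a summit from 1 to 5 kb downstream of the start, as did 8 of 31 other collagens (25.8%, 13.7 to 43.2), against 11.4% of all coding genes of that length. From 1 to 5 kb upstream the counts were 0 of 11 fibrillar genes (interval up to 25.9%) and 5 of 31 other collagens (16.1%), against 13.7%. The 7 were Col1a1, Col1a2, Col2a1, Col3a1, Col5a2, Col11a1 and Col27a1. Col27a1 is among them by its GENCODE start and not by its RefSeq start. From its RefSeq start, 1408 bp further in, it has no summit 1 to 5 kb downstream. The summit 36 bp upstream of the GENCODE start then falls in the upstream window. The choice of start matters for others of the 7 too. Over all annotated transcript starts, the nearest summit lay 200 bp away in Col11a1, 461 bp in Col1a1, 497 bp in Col2a1 and 724 bp in Col1a2. In Col3a1 and Col5a2 it lay 2476 and 1673 bp away. The downstream window was counted from gene starts only. The downstream share of the other coding genes was 11.2% from 5 to 50 kb, 11.2% from 50 to 150 kb and 12.5% above 150 kb. In the same length classes 4 of 6, 2 of 2 and 1 of 3 fibrillar genes had such a summit. Of all summits within 5 kb, 10 of 11 at fibrillar genes and 12 of 19 at other collagens were downstream, against 46.0% at the other coding genes. The 10 include the Col27a1 summit at 1294 bp, which lies upstream of that gene's RefSeq start.

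**Figure D2:**
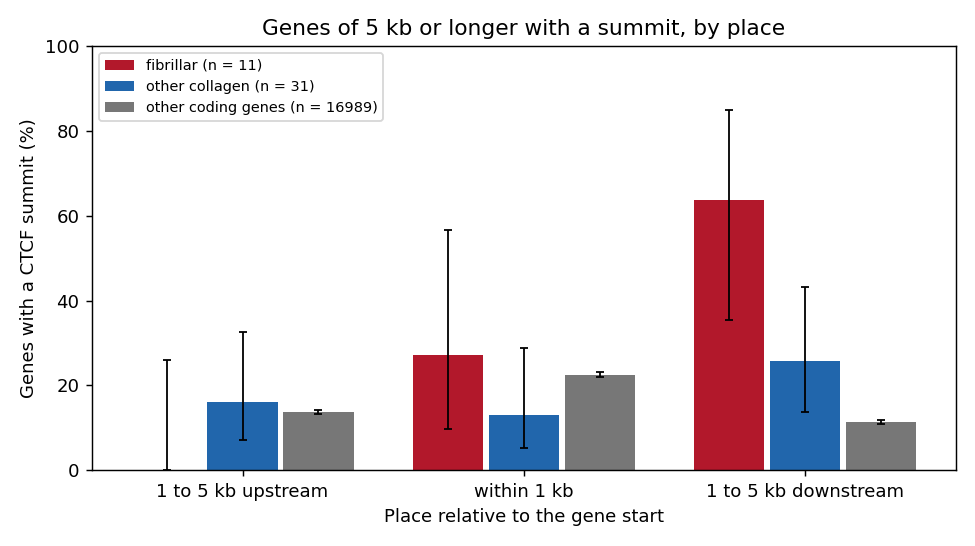
Share of genes of 5 kb or longer (percent, vertical axis) with a conservative summit 1 to 5 kb upstream, within 1 kb, or 1 to 5 kb downstream of the start, for fibrillar collagens, other collagens and other coding genes. Bars are shares and whiskers 95% Wilson intervals; downstream, 63.6% of the fibrillar genes stand beside 11.3% of the other coding genes.

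Many of these summits fell in the first intron, the stretch where the type I and type II collagen genes are known in rodents to carry control elements. In the longest coding transcript, 8 of 11 fibrillar genes (72.7%, 43.4 to 90.3) and 16 of all 42 collagen genes (38.1%) had a summit in the first intron, against 16.5% of all coding genes with introns. First introns were longer in these genes, with medians of 5.13 kb in fibrillar genes and 8.85 kb in all collagens, against 2.87 kb in the other coding genes. Per 100 kb of first intron there were 7.10 summits in fibrillar genes and 3.03 in all collagens, against 2.16 in the other coding genes. The fibrillar figure rests on 11 summits. Of these, the Col2a1 summit at 3305 bp and the Col11a1 summit at 2010 bp fall in untranslated exons of other transcripts. They are therefore also counted among the exon summits below.

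The fibril-associated collagens sit on the surface of fibrils or beside them, and 5 of these 9 genes had a summit within 5 kb. Col12a1, a fibril-associated collagen of muscle and tendon, had 3, at 1720 bp (375.3) and 2496 and 4461 bp upstream (344.1 and 443.4), all with the motif in the direction of the gene. Col14a1, its close relative, had 1, at 1299 bp upstream with 552.1 (343.5 in pool E and 210.9 in pool F). Col9a2, a cartilage collagen, had 1 at 1751 bp with 414.0. Col16a1 and Col19a1 had weak ones, with strengths of 62.1 and 88.1. Col9a1, Col9a3, Col20a1 and Col22a1 had none, and their nearest summits lay 5941, 8428, 10086 and 17455 bp away.

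Collagen VI genes fell into 3 with a summit within 5 kb and 3 without. Col6a1, Col6a2 and Col6a3 encode the chains of the main collagen VI of muscle, and variants of them cause muscle disease in people. Their strongest summits in the window lay 2409 bp upstream (457.7), at 195 bp (492.3) and at 3507 bp (519.0). In pool E these peaks had 285.2, 280.4 and 325.2, and in pool F 172.4, 211.0 and 200.0, which put all 3 at or above percentile 91.7 of the ranked pool E list and 88.1 of the ranked pool F list. The Col6a2 summit lies in the untranslated first exon. Col6a4, Col6a5 and Col6a6, a tandem row of later described chains, had their nearest summits 15937, 27546 and 6907 bp from the start. Col6a1 had no summit in its body, and the 85.2 kb between Col6a2 and Col6a1 held 0.

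Among the remaining classes, the transmembrane collagens Col13a1, Col23a1 and Col25a1 had summits in the window and Col17a1, a collagen of the skin's anchoring junctions, had none. Col13a1, which is found at neuromuscular junctions, had 553.5 at 1505 bp upstream and 161.4 at 1850 bp. Col23a1 had 532.2 at 300 bp upstream and 154.8 at 373 bp, in its first coding exon. Col25a1, whose product muscle needs for its innervation in mice, had a weak one of 58.2 at 1480 bp upstream. Of the multiplexins, which carry fragments that restrain vessel growth, Col15a1 had 76.3 at 773 bp and Col18a1 had none. Col26a1 had the strongest summit near any collagen start, 582.8 at 1645 bp (354.0 in pool E and 235.1 in pool F). Col28a1 had 251.1 at 3582 bp, and Col7a1, the anchoring fibril of skin, 95.4 at 4039 bp. The hexagonal network collagens Col8a1, Col8a2 and Col10a1 had none.

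Gene bodies were counted next. Summits lay in 37 of 42 collagen bodies (88.1%) against 46.7% of all coding genes, and the collagen genes are long, with a median of 110.8 kb against 17.6 kb in the other coding genes. By length the body counts were 11 of 15 under 50 kb against 35.2%, 17 of 18 from 50 to 150 kb against 81.9%, and 9 of 9 above 150 kb against 92.2%. Per 100 kb, summed over genes, the density was 2.42 in collagen bodies (117 summits in 4842 kb), 3.06 in fibrillar bodies (32 summits) and 2.24 in other collagen bodies (85 summits), against 2.25 in the other coding genes. Medians over genes were 2.31, 2.72 and 2.04 in those collagen groups. Part of the fibrillar density repeats the summits near the starts, since 22 of the 32 remained once the first 5 kb of each body was left out. Without those 5 kb, the summed density was 2.05 in collagen, 2.22 in fibrillar and 2.00 in other collagen bodies, against 2.00 in all coding genes. Between 50 and 150 kb of length, the summed density was 2.93 in 18 collagens against 2.58 in 3355 other coding genes. Above 150 kb it was 1.63 in 9 collagens against 1.44 in 1405 other coding genes. Under 50 kb it was 4.26 in 15 collagens against 3.49 in 16005 other coding genes. Under 50 kb the direction turned on Col1a1, since without it, an alternative chosen after seeing the data, the density was 3.45 in 14 collagens. Above 150 kb the 6 other collagens had 1.33, below the other coding genes, and the 3 fibrillar genes 2.49. The comparison also turned with the list. Collagen bodies had 2.75 per 100 kb in the pool E list against 2.79 in all coding genes, and 2.07 in the pool F list against 1.76. Fibrillar bodies had 3.25 and 2.58 in the pool E and pool F lists. Other collagen bodies had 2.61 in the pool E list against 2.79, 1.92 in the pool F list against 1.76, and 2.55 in the combined list against 2.70. With only the stronger 50% of the conservative list, other collagen bodies had 1.40 and all collagen bodies 1.47, against 1.05 in all coding genes.

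**Figure D3:**
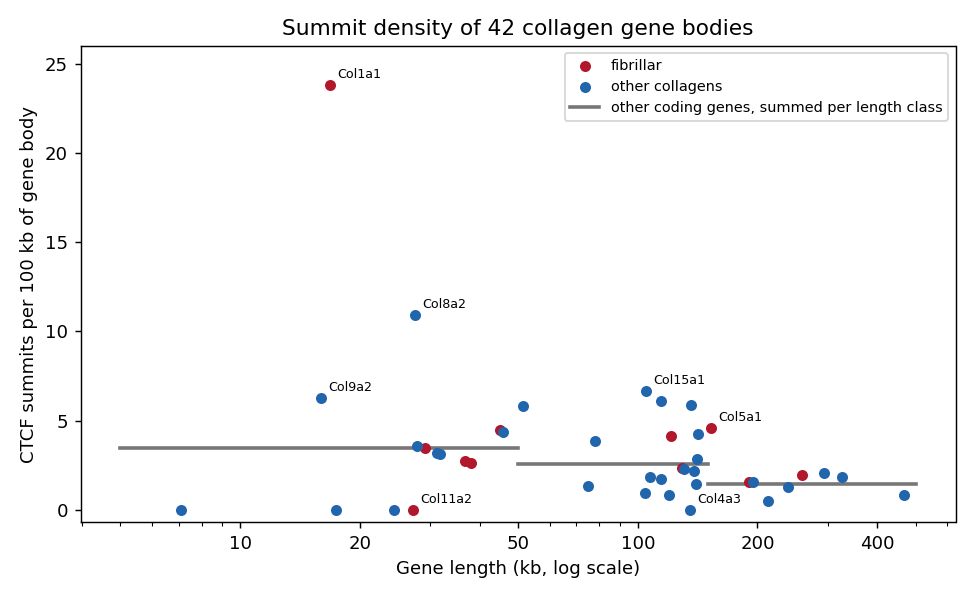
Conservative summits per 100 kb of gene body (vertical axis) against gene length in kb (log scale) for 11 fibrillar (red) and 31 other collagen genes (blue), with grey lines for the density summed over other coding genes in 3 length classes. Col1a1 stands alone at 23.8 per 100 kb, and 5 genes lie at 0.

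Single genes departed from that average. Col1a1 had 23.8 summits per 100 kb; among 13520 coding genes of 10 kb or longer, 47 were as dense or denser, a share of 0.348%. Next came Col8a2, a network collagen of the cornea and vessels, at 10.9 (3 summits), Col15a1 at 6.67 (7), Col9a2 at 6.27 (1) and Col18a1 at 6.12 (7). By number alone Col4a2 led with 8, followed by Col5a1, Col15a1 and Col18a1 with 7 each and by Col19a1, Col23a1 and Col26a1 with 6 each. Without Col1a1 the fibrillar density was 2.72. In Col15a1 the strongest were 562.5 at 47702 bp and 556.5 at 26867 bp, and in Col18a1 528.3 at 83831 bp. Col4a3, Col6a1, Col9a3, Col10a1 and Col11a2 had no summit in the body, and of these only Col6a1 had one within 5 kb of the start. Around Col9a3 and Col10a1 the nearest were at 8428 bp upstream (158.8) and at 9473 bp, beyond the end of that gene of 7.11 kb (123.9).

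The 3 equal parts of the gene body did not hold equal numbers in fibrillar genes. They had 15 summits in the first part, 15 in the middle and 2 in the last, both in Col27a1. Other collagens had 26, 25 and 34. In the other coding genes the parts held 35.7%, 29.7% and 34.7%. The fibrillar genes thus had 6.25% of their body summits in the last part, against 40.0% in other collagens and 34.7% in the other coding genes. These counts were examined after the positions had been seen, and summits of 1 gene are not independent.

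The head-to-head pairs are the 2 autosomal collagen IV loci. Col4a1 and Col4a2 encode the chains of the common basement membrane collagen, and Col4a3 and Col4a4 encode chains of the kidney and lung form. In each pair the genes leave a shared start region in opposite directions. The starts of Col4a1 and Col4a2 lie 21 bp apart on chromosome 8, and these genes overlap between them. Those of Col4a4 and Col4a3 are 72 bp apart on chromosome 1, without overlap. Neither pair had a conservative summit within 5 kb of either start, against 48.0% of 1178 other head-to-head coding pairs with starts within 1 kb of each other. Among the 78 other pairs that span 200 kb or more, 48.7% had one. With only 2 pairs, a count of 0 is compatible with a wide range of shares.

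The nearest summits around the shared starts were far away. At Col4a1 and Col4a2 they lay 59144 bp into Col4a1 (561.9) and 42448 bp into Col4a2 (127.4), which leaves 101.6 kb without a summit. At Col4a4 and Col4a3 they lay 14891 bp into Col4a4 (343.3) and beyond the far end of Col4a3, which leaves 187.8 kb. The genes of a pair differed as well. Col4a2 held 8 summits and Col4a1 held 2, at 59144 and 97355 bp. Col4a4 held 3, at 14891, 32316 and 110367 bp, and Col4a3 held 0. Summed over the span of each pair, the density was 3.99 per 100 kb for Col4a1 with Col4a2 and 1.10 for Col4a4 with Col4a3, against a median of 1.72 over the 78 long pairs.

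**Figure D4:**
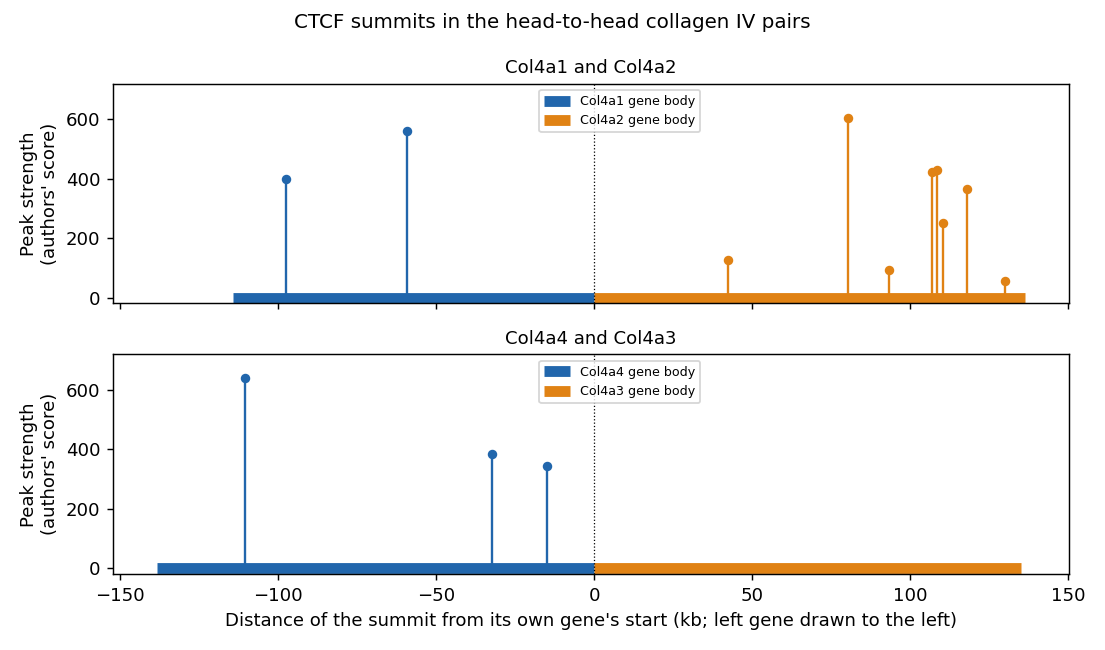
Authors' peak strength (vertical axis) of conservative summits in the bodies of the 4 head-to-head collagen IV genes, against distance from each gene's own start in kb, with one gene of a pair drawn to the left and the other to the right. Summits are missing around both shared starts and from the whole of Col4a3, and 8 lie in Col4a2.

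Within Col4a2, 4 of the 8 summits lie between 107060 and 118059 bp, with strengths of 423.7, 429.6, 250.5 and 365.2. In pool E the pair at 107060 and 108533 bp had 288.2 and 258.9, and in pool F 138.4 and 174.5, so their order differed between the pools. The Col4a4 summit at 110367 bp had 642.2, rank 65 of the conservative list, with 366.2 in pool E and 280.3 in pool F. Below the threshold, 3 ranked candidates lay within 5 kb of the Col4a1 and Col4a2 starts. One of them, at 1068 bp into Col4a1, had entered the combined list with a strength of 39.9. Its irreproducible discovery rate (IDR) in the ranked conservative list was 0.610, against a limit of 0.05. The lowest IDR of the 3 was 0.151, for the candidate at 3044 bp into Col4a1. The ranked list had no candidate within 5 kb of the Col4a3 and Col4a4 starts.

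Between other neighbouring collagens each gap held 0 or 1 summit, and no background for gaps between genes was computed. Col3a1 and Col5a2 stand tail to tail with 24.6 kb between their ends and 0 summits there, and Col9a1 and Col19a1 likewise with 9.21 kb and 0. The tandem genes Col6a6, Col6a5 and Col6a4 had 1 summit in each of the gaps between them (66.4 and 302.9), over 27.9 and 28.8 kb.

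Of the 19 collagen genes without a conservative summit within 5 kb, 11 had no candidate there even in the ranked list. The combined list gave one to Col4a1 and Col4a2 (the same peak), Col6a4 and Col8a2, and the pool E list to Col6a4 and Col8a2, at 3032 bp upstream and 151 bp downstream. The pool F list gave none. When every transcript start was used, 6 of the 19 had a summit within 5 kb of one.

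Features of the summits that the choice of genes did not use were set beside those of other summits. A motif match lay within 50 bp of 110 of the 125 summits (88.0%, 81.1 to 92.6), against 77.6% of all conservative summits. In windows displaced by 2000 bp it was 18 of 250 (7.20%) around collagen summits and 3.17% around all summits. Of the 110, 16 had 0 mismatches, 45 had 1 and 49 had 2. Near starts 23 of 30 (76.7%, 59.1 to 88.2) had a match, against 64.0% of summits near other coding starts, a value inside the interval. In bodies it was 88.0% of 117 against 74.8% in other coding bodies. Matches read in the direction of the gene in 57 cases and against it in 53. The median strength was 325.3 over the 125 summits against 245.6 over the conservative list, which also placed 77 of the 125 in its stronger 50%. Of these 77, 94.8% had a match, so motif share and strength are not separate features.

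Exons held few of them. Of the 117 body summits, 9 lay in exons (7.69%), against 17.6% in the other coding genes. Exons make up 6.88% of collagen bodies and 9.17% of other coding bodies. In coding exons there were 4, in exon 2 of Col6a3, exon 33 of Col16a1, exon 19 of Col28a1 and exon 1 of Col23a1. The summit of Col23a1 nearest its end, at 293008 bp, lay in its last exon and within 5 kb of the start of Phykpl. Sequence marked as repeat held 24 of the 125 (19.2%) against 19.7% of all summits.

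The pools gave the collagen summits a similar order. All 125 had a peak in each ranked list, and over them the Spearman correlation of strength between pool E and pool F was 0.978, given as a description over peaks that share a control. The 125 were taken from the conservative list, which keeps peaks at an IDR of 0.05 or less over both pools. Their presence in both ranked lists and their similar order were thus in part set by that choice. By a reciprocal overlap of 50%, the pool E list held 111 of them and that of pool F held 91. By any overlap, 95 were in both, 23 in the pool E list alone and 7 in the pool F list alone. The 23 had a median strength of 71.9, and 1 of them, in Col22a1 at 116409 bp, had 616.4. The 7 were at the strong end, from 512.5 to 642.2, and include the Col1a1 summit at 928 bp and those of Col26a1 at 1645 bp, Col14a1 and Col4a4 at 110367 bp.

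**Figure D5:**
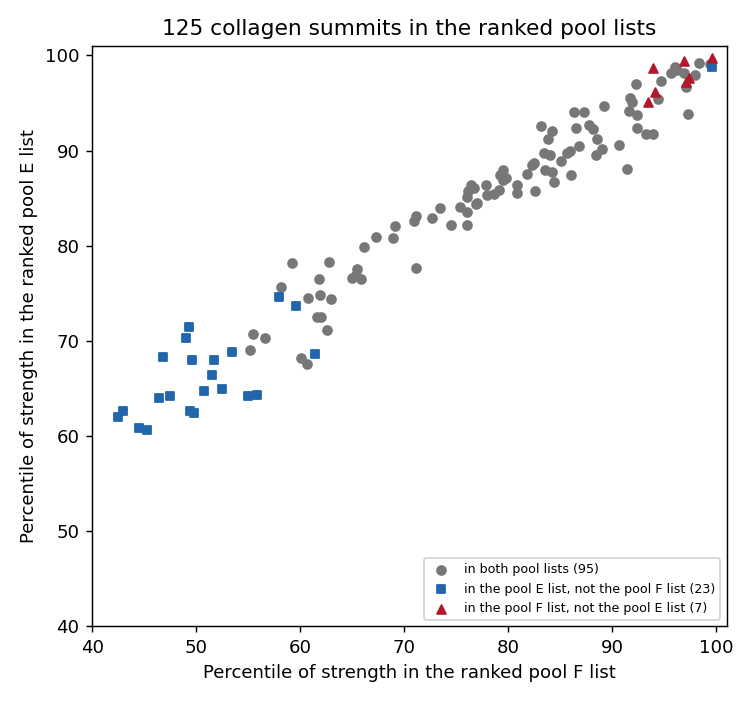
Percentile of peak strength in the ranked pool E list (vertical axis) and in the ranked pool F list (horizontal axis) for the 125 collagen summits, marked by the thresholded pool lists that hold a peak there. The 7 summits that only the pool F list holds (triangles) all lie at or above percentile 93.4 in both ranked lists.

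Genes that make, process and bind collagen were counted in the same way. Over 66 autosomal genes in 7 lists, 36 (54.5%, 42.6 to 66.0) had a summit within 5 kb of the start, against 38.2% of all coding genes. The lists are small, and shares ran from 4 of 11 fibril-associated proteoglycans and glycoproteins to 7 of 8 propeptide processing genes. Among the prolyl and lysyl hydroxylases, which modify the chains before they wind, 8 of 13 had one, led by P3h3 with 513.8. Among folding, glycosylation and export genes it was 6 of 10, led by Fkbp10, a chaperone of type I collagen, with 460.9; the same peak lies near the start of the neighbouring P3h4. Propeptide processing was led by Adamts14, a protease that trims the amino end, with 405.5, and Adamts2 had 4 summits in the window. Cross-linking enzymes had 2 of 5, Lox (300.1) and Loxl1 (62.6). Collagen receptors had 5 of 10, led by the integrin Itga10 with 370.3. Breakdown had 4 of 9, led by the protease Ctsk with 366.9, and the last list was led by Postn, a matricellular protein, with 271.7.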

How the data were processed

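CTCF ChIP-seq peak lists of mouse gastrocnemius were used as deposited, in mm10 coordinates per the labels. Per the notes deposited with each sample, technical replicates were merged per pool, 1 control served both pools, and the thresholded lists keep peaks at an IDR of 0.05 or less. The aligner and peak caller are not given in the sources used here. Peak strength is a score the authors deposited with each peak, on an unstated scale, and the −log10 of the IDR in the ranked lists is the authors' too. Depth is unknown.

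The conservative list was the main one. A gene's start is the outer 5′ end of the gene in GENCODE M21. Motif matches differ from the 14-base CTCF core consensus at no more than 2 positions, with their centre at most 50 bp from the summit. Head-to-head means opposite strands with starts within 1 kb. Genes named are all members, and the strongest summit of each pathway list. Members and lists were chosen with earlier results of these data known. No test was run, since genes are not replicates; shares have 95% Wilson intervals (counting error only). Counting and motif steps were checked on simulated positions. Python 3.11.15, numpy 2.4.6, pandas 2.3.3 and pysam 0.24.0 were used.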

Additional observations from a re-analysis of the deposited data

How the results depend on the processing

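Of 63 alternatives computed over the results, 44 stayed close and 19 moved. For a share, close means inside the 95% interval of the value given in the report, and for a density or count it means within 1.5 times that value. These intervals are wide. For the 11 fibrillar genes it runs from 43.4 to 90.3%, so 45.5% with the stronger 50% of the list still counted as close to 72.7%. The label also does not compare a value with that of all coding genes. With the stronger 50% of the conservative list, which by construction holds fewer peaks, the share of collagen genes with a summit within 5 kb was 35.7% (21.1% of all coding genes). The summits per 100 kb were then 1.47 in collagen, 1.72 in fibrillar and 1.40 in other collagen bodies, against 1.05 in all coding genes. The motif share was 94.8%. With a window of 1 kb the shares were 16.7% of collagens, 27.3% of fibrillar and 12.9% of other collagens, and with 20 kb 88.1%, 90.9% and 87.1%. From any transcript start they were 69.0% of collagens, 72.7% of fibrillar and 67.7% of other collagens, against 48.2% of all coding genes. The 2 classes thus lay closer together than from the gene start. From 1 to 5 kb downstream and upstream, windows added after seeing the data, they were 35.7% and 11.9% of collagens. The motif share was 81.0% in the combined list, 80.1% in the pool E list and 48.8% with at most 1 mismatch. A reciprocal overlap of 80% left 10 of 125 summits in the pool F list, whose peaks are narrower (median 241 bp, against 294 bp in the conservative list). No paired analysis was possible because the samples form no groups to compare: the 2 pools are the biological replicates, and only technical replicates share a pool. Depth, cell type and the parental alleles limit what these lists can show.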

Other observations

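The 7 collagen summits missing from the pool E list are strong in the ranked pool E list, at percentiles from 95.2 to 99.8, but their IDR in that list ran from 0.0580 to 0.601, above the limit of 0.05. In the ranked pool F list their IDR was at most 0.00142. Over all ranked pool E peaks at or above the 95th percentile of strength, 1542 of 6061 (25.4%) had an IDR above 0.05. The cause was not tested.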
